A study of Malus domestica with 18 samples.

Results

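Transcript levels of 18 target genes were compared between NO-treated and control axes of apple (Malus domestica cv. Antonówka) embryos after 14 days of seed aging. The comparison used the 6 samples labelled for this aging time, 3 NO-treated and 3 control, out of 18 samples in the series, and all 18 target genes that were measured, without the reference genes *Sar1* and *Pdi*. The samples follow from their labels and the genes are all those measured, so no threshold on a measured value defines them. The seeds had been held on moist sand at 33 °C for 14 days, an accelerated aging treatment which both groups shared. The isolated embryos were either fumigated for 3 h with the vapours of acidified nitrite (14.5 mM NaNO2 in 0.2 M HCl), which release NO, or left non-treated, and both were then cultured on wet filter paper for 48 h before the axes were cut out. The labels describe no mock fumigation of the control, so exposure to NO and the handling that goes with fumigation cannot be told apart. The other 12 samples came from seeds aged for 7 or 21 days under the same 2 treatments.

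Transcripts were measured by RT-qPCR, in which the quantification cycle is the cycle at which the SYBR Green signal crosses a threshold, so that a lower cycle means more template. At 14 days the cycles of the target and reference genes lay between 20.2 and 30.8. The deposited relative expression is a ratio for which the reference genes had been taken into account and the same-day control placed near 1. Each sample is RNA from many axes, in which fewer cells with a transcript and less of it per cell cannot be told apart. None of the measured genes is a marker of a cell type, so the labelled tissue was not checked against markers. The replicates are labelled as biological, and the technical repetitions of each had been averaged before deposit. The labels do not say how the replicates were separated, so p-values rest only on the spread between the measured samples. Those from limma use the spread within groups over all 18 samples of the series. The 3 samples a group limit the precision of the results.

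The genes belong to systems that maintain proteins and steer growth in the seed. Heat shock proteins and chaperonins hold or fold new or damaged proteins. Clp/Hsp100 chaperones pull proteins out of aggregates, and late embryogenesis abundant (Lea) proteins shield membranes and proteins when the embryo is dry. Protein L-isoaspartyl methyltransferase (*Pimt*) repairs aspartyl residues that isomerise as proteins age, the *Tor* kinase with its partner *Raptor* couples nutrient supply to protein synthesis, and SAUR proteins respond to auxin and promote cell expansion.

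Between NO-fumigated and control axes of seeds aged for 14 days, 8 of the 18 transcripts were called different. This is 44.4% of those tested, and an unadjusted p under 0.05 from limma gave the same percentage. The 3 transcripts that rose (16.7%), *Hsp70c*, *Hsp20a* and *Cpn60a*, all encode chaperones, of which the measured set holds many. Among the 18 genes, 4 are *Hsp90* and Hsp70, 2 small heat shock, 2 chaperonin and 2 Clp/Hsp100 genes. The members of these families other than the 3 were not called. The 5 transcripts that fell (27.8%) were those of *Pimt*, *Tor*, *Saur*, *Lea2a* and *Lea4*. The calls of *Lea2a* and *Lea4* were lost under 8 and 6 of the 18 alternatives tried, and only 3 genes were called lower without control replicate 3, NO replicate 2 or NO replicate 3. A gene was called when its adjusted p from limma, over the 18 genes, was under 0.05. The median log2 fold change over all 18 genes was -0.04. The 3 largest changes were 10.4-fold for *Hsp70c*, 5.42-fold for *Pimt* and 4.09-fold for *Tor*, and these ran in both directions.

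**Figure D1:**
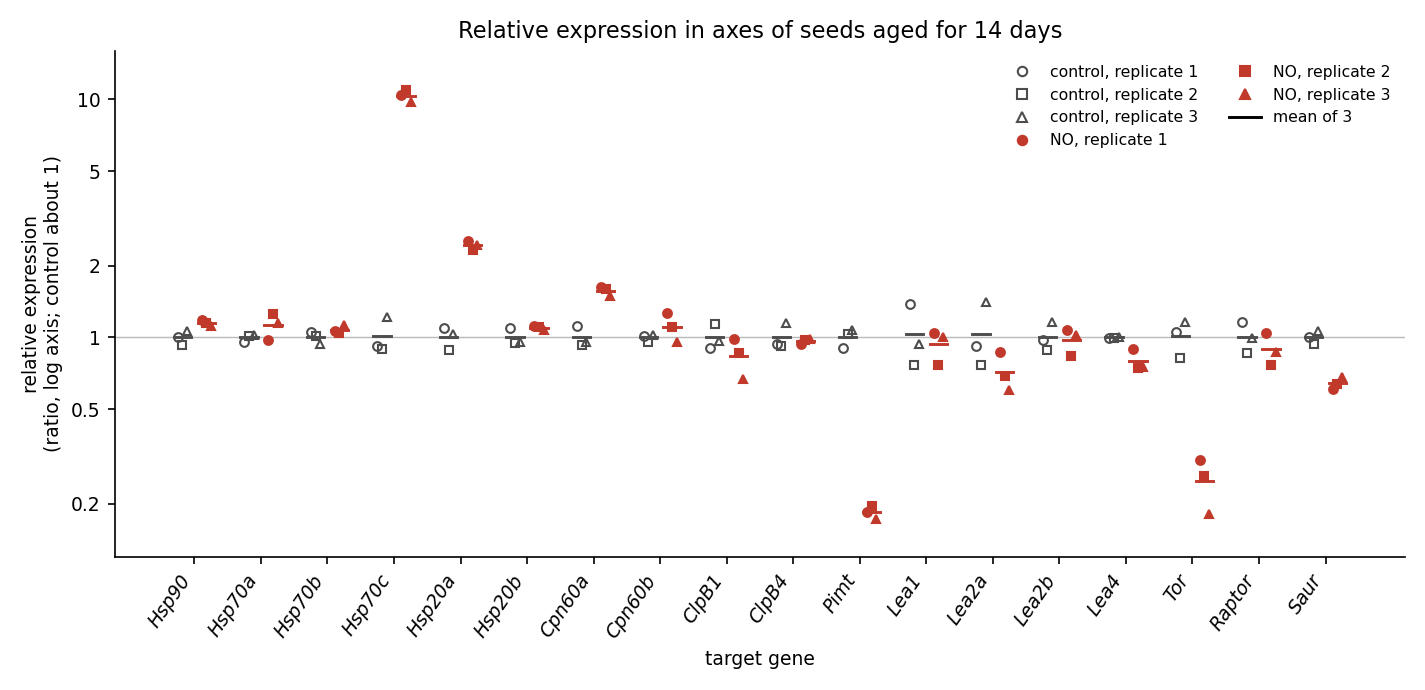
Relative expression (ratio, log axis, control about 1) of the 18 target genes in each of the 3 control samples (open symbols) and 3 NO-treated samples (filled symbols) of seeds aged for 14 days, with a line at each group mean. *Hsp70c* of the NO-treated samples lies between 9.73 and 10.9, and *Pimt* between 0.173 and 0.196, far from their controls, while most other genes of both groups lie close to 1.

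Each signal is defined by its primer pair. The designed primers of the 6 transcripts whose calls held under every alternative tried are given here, 5′ to 3′ and in lower case throughout, as no base is singled out:
Hsp70c forward: caatgatgctcagagacagg
Hsp70c reverse: accaccaagatcaaatacagc
Hsp20a forward: gagaggaagagggagcagga
Hsp20a reverse: agccgaaacctcctcgtgaac
Cpn60a forward: acatctgaagaaatagctcagg
Cpn60a reverse: cattccttcaacgacctccaa
Pimt forward: gatggtggatcatttgaagag
Pimt reverse: ctatcaatagtctccatcacttcag
Tor forward: atctggtggagcagctttgc
Tor reverse: tcgttataccgttctgcatcac
Saur forward: catgtcaaggctgctcacctgg
Saur reverse: ccaaccgcttgtaacccgac
The pairs for *Hsp70c* (gene model MDP0000416692), *Hsp20a* (MDP0000412799) and *Saur* (MDP0000807487) are listed with 1 gene model each. Those for *Cpn60a* (MDP0000859313 and MDP0000235765) and *Pimt* (MDP0000314934 and MDP0000299692) are listed with 2 and that for *Tor* with 3. Over the 18 target genes, 5 pairs have 1 model and 13 have more, up to 5 for *Hsp70a*, and where models are near copies the share of each in the signal is uncertain.

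Among the *Hsp90* and Hsp70 genes, 1 of 4 rose and none fell, near the 16.7% called higher over all 18, and the median log2 fold change was 0.18 against -0.04 over all 18. *Hsp70c*, whose closest Arabidopsis protein is a mitochondrial Hsp70 that assists import and folding in that organelle, had the largest response. Its relative expression was 0.921, 0.894 and 1.22 in the 3 control samples and 10.5, 10.9 and 9.73 in the 3 NO-treated samples. The groups were far apart, and the lowest NO-treated sample stood well above the highest control. The mean rose from 1.01 ± 0.178 (SD, n = 3) to 10.4 ± 0.600 (SD, n = 3), a log2 fold change of 3.37 (limma, standard error 0.13, adjusted p = 3.0e-16). The linear rise was 10.4-fold with a 95% confidence interval from 8.57 to 12.5. The cycles moved alike, from 30.7, 30.8 and 30.4 in the control to 27.1, 27.1 and 27.1 with NO, before any reference gene was applied.

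The other members of this family were measured in the same samples and none passed the threshold. *Hsp90*, a chaperone of signalling proteins, had relative expression of 1.01, 0.929 and 1.07 in the control and 1.19, 1.15 and 1.12 with NO. The groups did not overlap, yet the log2 fold change was 0.20 (95% confidence interval -0.02 to 0.42, adjusted p = 0.120 from limma). Under other scalings *Hsp90* passed the threshold on cycles alone (adjusted p = 0.0197 from limma) and on cycles centred over the targets (adjusted p = 0.0486 from limma). *Hsp70a*, another Hsp70 chaperone, had values of 0.958, 1.02 and 1.03 in the control and 0.9749, 1.25 and 1.15 with NO, and the groups overlapped through NO replicate 1. Its log2 fold change of 0.16 (adjusted p = 0.289 from limma) passed the threshold with *Pdi* alone (adjusted p = 0.0495) and without a reference gene (adjusted p = 0.0213). *Hsp70b*, a cytosolic Hsp70 by its Arabidopsis match, had a log2 fold change of 0.11 (95% confidence interval -0.12 to 0.33), and the value computed from its cycles was -0.08 with both reference genes. The log2 fold change of *Hsp70c* exceeded those of all 3 of these genes, although these differences between genes were not tested.

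Of the pair of small heat shock genes, which encode chaperones that hold unfolding proteins in solution, *Hsp20a* rose and *Hsp20b* was not called. *Hsp20a*, matched to a class I protein of Arabidopsis, had values of 1.10, 0.883 and 1.03 in the control and 2.54, 2.34 and 2.44 with NO. Every NO-treated sample exceeded the highest control. *Hsp20a* had a log2 fold change of 1.29 (standard error 0.14, adjusted p = 3.3e-08 from limma), that is 2.44-fold with an interval from 1.99 to 2.98. *Hsp20b*, matched to a class II protein, ran from 0.952 to 1.10 in the control and from 1.08 to 1.12 with NO. Its log2 fold change of 0.14 had a 95% confidence interval from -0.13 to 0.41 (adjusted p = 0.392 from limma), which lies wholly below that of *Hsp20a*.

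Both chaperonin genes encode proteins whose Arabidopsis matches act in mitochondria. *Cpn60a* was 1.12, 0.933 and 0.956 in the control and 1.63, 1.59 and 1.496 with NO, without overlap. It rose 1.57-fold (interval 1.33 to 1.85), with a log2 fold change of 0.65 (standard error 0.11, adjusted p = 3.4e-05 from limma). *Cpn60b* had a log2 fold change of 0.14 (95% confidence interval -0.13 to 0.41, adjusted p = 0.392 from limma), with NO-treated samples from 0.954 to 1.27 around a control range of 0.957 to 1.03. Of the 4 genes with a mitochondrial Arabidopsis match (*Hsp70c*, *Cpn60a*, *Cpn60b* and *ClpB4*), 2 rose and none fell, against 3 (16.7%) and 5 (27.8%) of all 18. Their median log2 fold change was 0.40 against -0.04 over all 18, and *Hsp70c*, the gene with the largest change, is 1 of these 4.

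Neither Clp/Hsp100 gene was called. *ClpB1*, which in Arabidopsis is the cytosolic disaggregase needed for heat tolerance, was 0.907, 1.14 and 0.966 in the control and 0.986, 0.858 and 0.667 with NO. The groups overlapped, and NO replicate 3 was the lowest sample. *ClpB1* had a log2 fold change of -0.27 (95% confidence interval -0.56 to 0.01, adjusted p = 0.118 from limma), and it was called lower without NO replicate 1 (adjusted p = 0.0219) and with *Sar1* alone (adjusted p = 0.0459). *ClpB4*, the mitochondrial counterpart, had a log2 fold change of -0.05 (95% confidence interval -0.29 to 0.19).

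**Figure D2:**
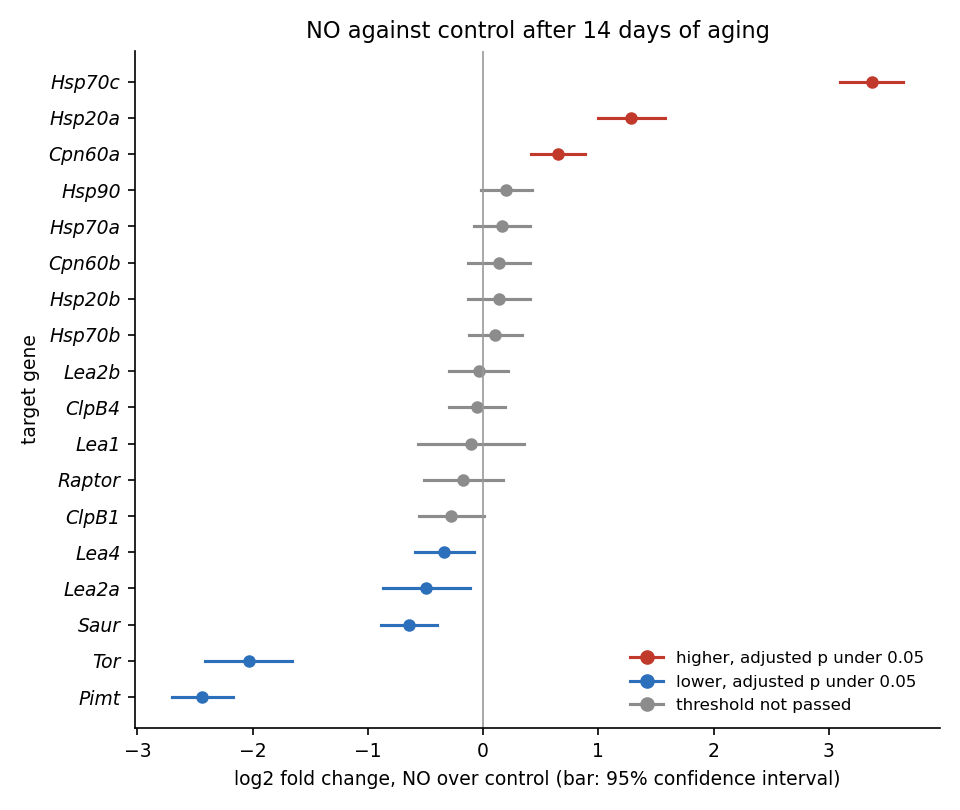
Log2 fold change of NO over control (horizontal axis) for each of the 18 target genes at 14 days of aging, ordered by value, with bars for the 95% confidence interval from limma. Red points mark the 3 genes called higher, blue points the 5 called lower and grey points the 10 that were not called, whose folds lie between 0.827 and 1.15.

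*Pimt*, the protein repair gene, had the largest fall by point estimate. Its relative expression was 0.906, 1.03 and 1.07 in the control and 0.185, 0.196 and 0.173 with NO. The NO-treated samples were tightly grouped and none came near the control. The mean changed from 1.003 ± 0.0864 (SD, n = 3) to 0.185 ± 0.0114 (SD, n = 3), a log2 fold change of -2.44 (limma, standard error 0.13, adjusted p = 5.7e-14). The 95% confidence interval of -2.70 to -2.17 overlapped that of *Tor* (-2.41 to -1.65). On the linear scale the level was 5.42-fold lower, and the cycles without a reference gene moved from 24.2, 24.1 and 24.2 to 26.5, 26.4 and 26.5.

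Within the *Tor* complex, the kinase gene fell while its partner was not called. *Tor* was 1.06, 0.819 and 1.16 in the control and 0.306, 0.262 and 0.182 with NO, so every NO-treated sample was below every control. *Tor* fell by 2.03 on the log2 scale (standard error 0.18, adjusted p = 1.3e-09 from limma), a level 4.09-fold lower. *Raptor*, which brings substrates to the kinase, was 1.16, 0.864 and 0.996 in the control and 1.05, 0.769 and 0.867 with NO. On this scale the 2 groups overlapped widely. The log2 fold change of *Raptor* was -0.17 (95% confidence interval -0.51 to 0.17, adjusted p = 0.392 from limma), an interval that does not reach that of *Tor* (-2.41 to -1.65), and with *Sar1* alone it was called lower (-0.39, adjusted p = 0.0477). Computed anew from cycles, with both reference genes, the control samples of *Raptor* were 1.05, 0.986 and 0.963. With NO they were 0.937, 0.756 and 0.826, all below the control. The log2 fold change was then -0.26 and not called (adjusted p = 0.156 from limma).

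*Saur*, whose Arabidopsis match is the auxin-responsive SAUR36, was 1.005, 0.935 and 1.06 in the control and 0.605, 0.639 and 0.679 with NO. The groups did not overlap, and *Saur* fell by 0.64 on the log2 scale (standard error 0.12, adjusted p = 5.7e-05 from limma), which is 1.56-fold.

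Of the 4 Lea genes, 2 fell and none rose, against 5 (27.8%) lower and 3 (16.7%) higher of all 18, and the median log2 fold change was -0.22 against -0.04 over all 18. *Lea4*, matched to the Arabidopsis protein ECP63, was 0.996, 0.998 and 1.01 in the control and 0.892, 0.744 and 0.748 with NO. The control samples of *Lea4* were nearly equal (coefficient of variation 0.496%, the lowest of the 18 genes) and all lay above the NO-treated ones. *Lea4* fell by 0.34 on the log2 scale (standard error 0.12, adjusted p = 0.0286 from limma). Computed anew from cycles, with both reference genes, its control samples were 0.901, 1.15 and 0.967, a wider spread, and the log2 fold change was -0.44 (adjusted p = 0.0110 from limma). Leaving out any sample except NO replicate 1 ended the call of *Lea4*, with adjusted p from 0.0580 to 0.120.

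*Lea2a*, a WHy domain protein by its match, was 0.924, 0.764 and 1.42 in the control and 0.872, 0.686 and 0.600 with NO. On this scale the groups overlapped, and control replicate 3 stood apart from the other 2 controls. The log2 fold change was -0.49 (standard error 0.18, adjusted p = 0.0286 from limma), while the exact permutation test, two-sided, gave p = 0.2. Without control replicate 3 it was -0.24 (adjusted p = 0.283 from limma). Computed anew from cycles, with both reference genes, the control samples of *Lea2a* were 0.841, 0.875 and 1.36. With NO they were 0.785, 0.680 and 0.578, all below the control. The log2 fold change was then -0.57 (adjusted p = 0.00629 from limma). *Lea1* had the widest interval of the 18 genes, a log2 fold change of -0.11 with 95% confidence limits of -0.56 and 0.35, and its control samples ran from 0.768 to 1.38. *Lea2b* had a log2 fold change of -0.04 with limits of -0.30 and 0.22.

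Counted without a model, the 2 groups did not overlap in 8 of the 18 genes (44.4%), with all NO-treated samples above in 4 (22.2%; *Hsp90*, *Hsp70c*, *Hsp20a* and *Cpn60a*) and below in 4 (22.2%; *Pimt*, *Lea4*, *Tor* and *Saur*). The exact permutation test, two-sided, gave p = 0.1 for each of these 8, the smallest that 3 against 3 samples allow. These, counted on the deposited relative expression, are the called genes with *Hsp90* in place of *Lea2a*. On levels computed anew from cycles, with both reference genes, the groups of *Lea2a* and *Raptor* did not overlap either. Of the 10 genes that were not called, 5 had folds above 1 and 5 below. Their 95% confidence limits spanned folds from 0.676 to 1.34, so changes of that size in either direction could go uncalled with 3 samples a group. Standard errors ran from 0.11 to 0.22 on the log2 scale.

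The reference genes were examined because a change in them would move all targets. *Sar1* was measured at 23.1, 23.3 and 23.4 cycles in the control and 22.97, 23.2 and 22.9 with NO, a difference of -0.233 cycles (exact permutation test, two-sided, p = 0.2). *Pdi* differed by 0.0267 cycles (exact permutation test, two-sided, p = 0.7), from 25.2 ± 0.0692 (SD, n = 3) to 25.3 ± 0.0971 (SD, n = 3). Both differences were small beside the changes of *Hsp70c*, *Pimt* and *Tor*. That of *Sar1* was close in size to the larger changes of the uncalled genes, and that of *Pdi* was smaller than any of them. *Sar1* also came near the change of the called *Lea4* (-0.34 on the log2 scale), whose call was lost with *Pdi* alone.

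The relative expression of the genes did not all rest on these cycles. For 8 genes, *Hsp70c*, *Hsp20a*, *Pimt* and *Saur* among them, relative expression matched what the cycles of both reference genes give, to within 0.0399 (root mean square, log2 scale). For another 9 (*Tor*, *Raptor*, the 4 Lea genes, *Hsp90*, *Cpn60a* and *Cpn60b*) the difference at 14 days was 0.114 to 0.140. The 9 genes shared nearly 1 normalizer of their own, whose shift between NO and control averaged 0.09 on the log2 scale with an SD of 0.02 between genes. Re-derivation from *Sar1* and *Pdi* lowered the log2 fold changes of these 9 by 0.07 to 0.13, and that of *Hsp70b* by 0.18. With levels re-derived in this way 3 genes were again called higher and 5 lower.

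**Figure D3:**
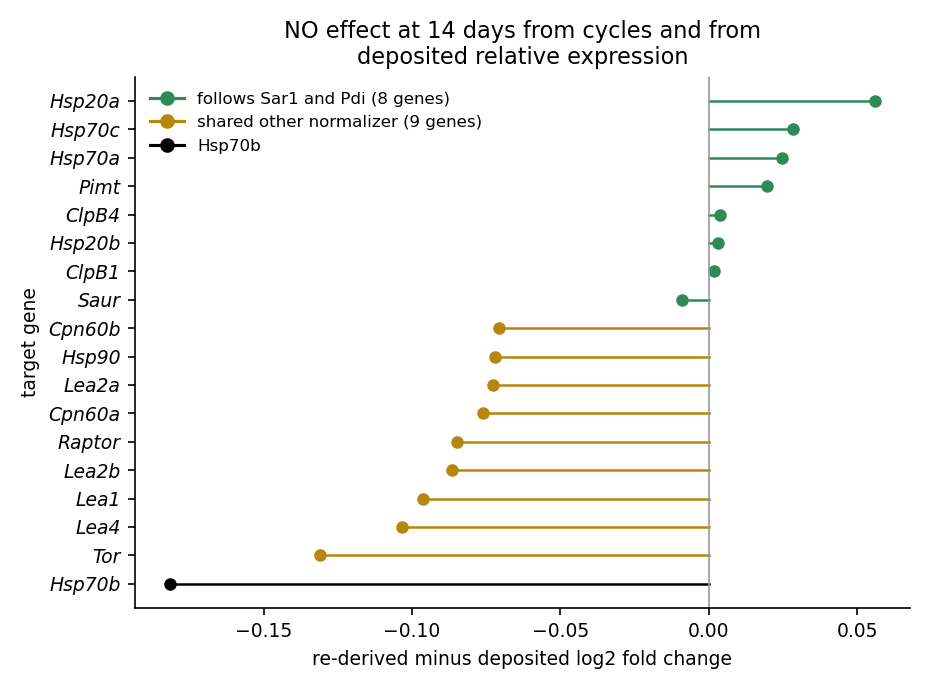
Difference between the log2 fold change re-derived from the deposited cycles with *Sar1* and *Pdi* and that of the deposited relative expression (horizontal axis) for each of the 18 genes at 14 days. The 9 genes with a shared other normalizer (amber) all moved down, by 0.07 to 0.13, *Hsp70b* (black) by 0.18, and the 8 genes that follow *Sar1* and *Pdi* (green) stayed nearer to 0.

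Whether the response after 14 days differed from that at the other aging times was tested gene by gene as a difference of NO effects. Each time has its own controls, but both differences below share the 14-day samples and are not separate evidence. Against 7 days, 11 of the 18 effects differed (61.1%), and against 21 days 9 did (50%). *Hsp70c* had NO effects of 0.70, 3.37 and -1.26 (log2 fold change) in order of aging time. Its effect at 14 days exceeded that at 7 days by 2.67 (limma, standard error 0.19, adjusted p = 1.8e-11) and that at 21 days by 4.64 (standard error 0.19, adjusted p = 5.3e-16). The effects on *Hsp20a* were -0.23, 1.29 and -0.49 in order of aging time. The differences were 1.51 (adjusted p = 9.2e-07 from limma) and 1.78 (adjusted p = 6.4e-08). For *Cpn60a* the effects were 0.20, 0.65 and 0.20, and the differences 0.45 (adjusted p = 0.0201 from limma) and 0.45 (adjusted p = 0.0232). The first call of *Cpn60a* was lost with *Sar1* alone (0.42, adjusted p = 0.142) and without 7-day control replicate 1 (adjusted p = 0.0515) or 14-day control replicate 2 (adjusted p = 0.0588). The other was lost with *Sar1* alone (0.36, adjusted p = 0.228), on cycles centred over the targets (0.13, adjusted p = 0.402), and without 14-day control replicate 2 (adjusted p = 0.0580) or 3 (adjusted p = 0.0539), 21-day control replicate 1 (adjusted p = 0.0663) or 21-day NO replicate 3 (adjusted p = 0.0635). From cycles with both reference genes the effects on *Cpn60a* were -0.09, 0.57 and -0.02. The differences on that scale were 0.66 (adjusted p = 0.00638 from limma) and 0.59 (adjusted p = 0.0144).

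*Pimt* showed the opposite contrast, with effects of 0.47, -2.44 and -0.11 at 7, 14 and 21 days. The effect at 14 days was lower than at 7 days (difference -2.91, adjusted p = 3.5e-12 from limma) and than at 21 days (difference -2.33, adjusted p = 1.3e-10). *Saur* had effects of 0.14, -0.64 and 0.58, with differences of -0.79 (adjusted p = 3.8e-04 from limma) and -1.23 (adjusted p = 9.4e-07). *Lea2a* had effects of 0.34, -0.49 and 0.39, with differences of -0.84 (adjusted p = 0.00832 from limma) and -0.89 (adjusted p = 0.00590). With *Pdi* alone both calls of *Lea2a* were lost, at -0.36 (adjusted p = 0.197) and -0.49 (adjusted p = 0.0918). From cycles with both reference genes the effects on *Lea2a* were 0.04, -0.57 and 0.17. Both differences were called on that scale, at -0.61 (adjusted p = 0.0278 from limma) and -0.73 (adjusted p = 0.0112). These 3 transcripts thus had their lowest point estimate at 14 days.

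For the *Tor* complex genes the values are given side by side, and *Tor* was not tested against *Raptor*. *Raptor* had effects of -1.45 at 7 days and -1.92 at 21 days, and its effect at 14 days (-0.17) was higher by 1.28 (adjusted p = 8.0e-05 from limma) and by 1.74 (adjusted p = 9.4e-07). *Tor* had effects of -1.71, -2.03 and -1.53, and no difference between 14 days and another time was called, at -0.33 against 7 days (95% confidence interval -0.86 to 0.21) and -0.50 against 21 days (95% confidence interval -1.04 to 0.03). From cycles with both reference genes the effects were -2.04, -2.16 and -1.79 for *Tor* and -1.73, -0.26 and -2.12 for *Raptor*.

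The remaining called differences were smaller than 1 on the log2 scale. Against 7 days the effect at 14 days was higher for *Cpn60b* (0.51) and lower for *ClpB4* (-0.59), *Lea4* (-0.58) and *ClpB1* (-0.52). Against 21 days it was higher for *Hsp70a* (0.91) and lower for *ClpB4* (-0.42). For *ClpB4* the effects were 0.54, -0.05 and 0.37, so that the point estimate at 14 days lay closest to 0. Several of these calls lay close to the threshold. With *Pdi* alone the differences from 7 days were -0.35 for *ClpB4* (adjusted p = 0.121), -0.16 for *Lea4* (adjusted p = 0.494) and -0.27 for *ClpB1* (adjusted p = 0.235), and *Lea4* also lost its call on cycles with both reference genes (-0.40, adjusted p = 0.0861). *ClpB4* against 21 days was -0.18 with *Pdi* alone (adjusted p = 0.403) and lost its call on cycles with both reference genes too (-0.42, adjusted p = 0.0530). *Cpn60b* lost its call with *Sar1* alone (0.53, adjusted p = 0.0579). It was also lost, at differences of 0.40 to 0.46, without 7-day control replicate 1, 7-day NO replicate 1 or 14-day NO replicate 1, with adjusted p from 0.0515 to 0.0716 in these. *ClpB1* lost it without 7-day control or NO replicate 1, 14-day control replicate 2 or 14-day NO replicate 3, at differences of -0.49 to -0.37 and adjusted p from 0.0515 to 0.0999. *ClpB4* against 21 days lost it without any of the samples compared except 14-day control replicates 1 and 2 and 21-day NO replicates 1 and 3, at differences of -0.45 to -0.32 and adjusted p from 0.0507 to 0.138. The deposited relative expression of *Hsp70b* gave effects of 0.19, 0.11 and 0.01 and no called difference, whereas its cycles gave 0.84, -0.08 and -2.52. On the latter scale the 14-day effect of *Hsp70b* was lower than at 7 days (-0.91, adjusted p = 1.1e-04 from limma) and higher than at 21 days (2.45, adjusted p = 1.8e-12), and which scale is the intended one was not tested.

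**Figure D4:**
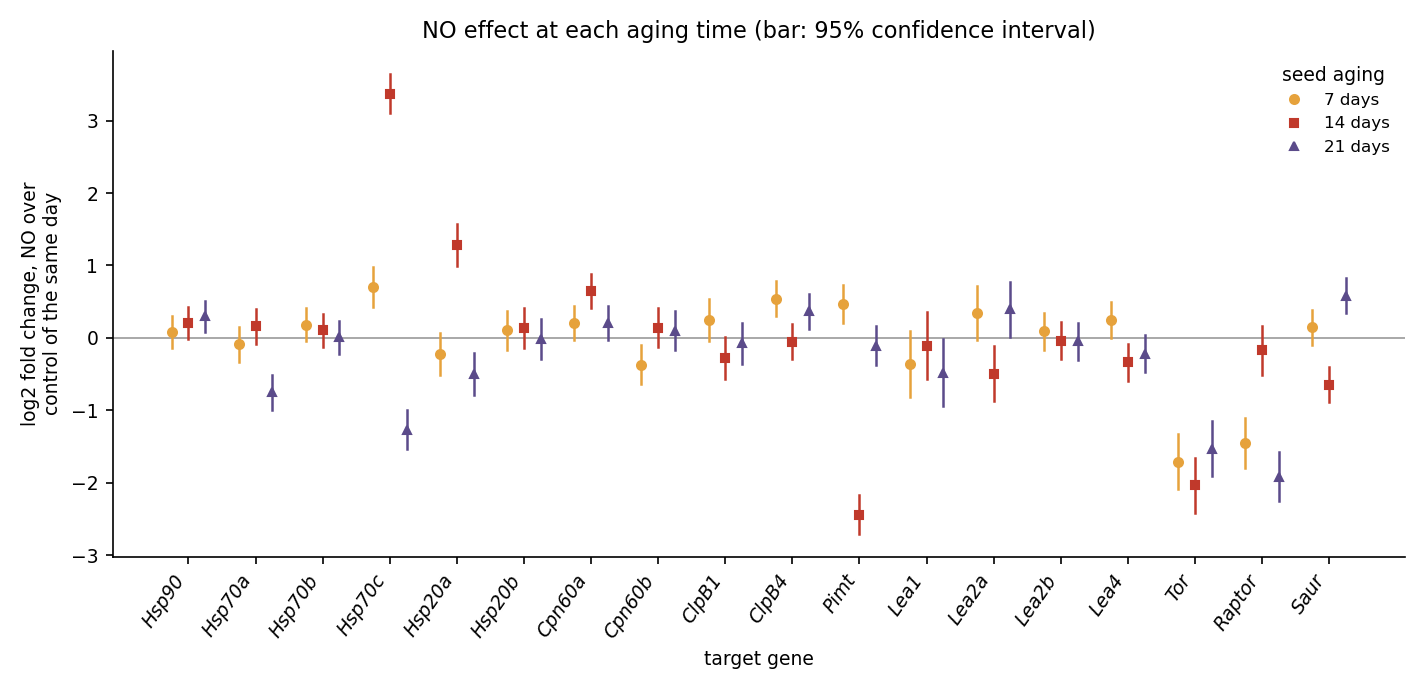
Log2 fold change of NO over the same-day control (vertical axis) for the 18 target genes at 7 days (circles), 14 days (squares) and 21 days (triangles), with bars for the 95% confidence interval from limma. Among the 3 times, the 14-day effect is the highest for *Hsp70c* (3.37) and *Hsp20a* (1.29) and the lowest for *Pimt* (-2.44) and *Saur* (-0.64), among other genes. That of *Tor* (-2.03) is also its lowest, though no difference between times was called for it. The 14-day effect of *Raptor* is near 0 (-0.17), and its effects at the other times are -1.45 and -1.92.

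The size of an effect depends on the control it is set against, so the cycles were also put on 1 scale, with the 7-day control at 1. The values that follow describe the samples and were not tested. Normalized to *Sar1* and *Pdi*, *Hsp70c* stood at 0.0370, 0.0358 and 0.0489 in the 14-day control and at 0.430, 0.446 and 0.399 with NO. The NO-treated axes thus carried more *Hsp70c* transcript than their own control and less than the 7-day control, which ran from 0.832 to 1.17. Without a reference gene the means were 0.0244 and 0.276, in the same order. *Hsp20a* stood at 0.399 ± 0.0458 (SD, n = 3) in the 14-day control and 1.01 ± 0.0457 (SD, n = 3) with NO, and without a reference gene at 0.242 and 0.656.

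*Pimt* stood at 2.07, 2.35 and 2.44 in the 14-day control on this scale, above the 7-day control, and at 0.428, 0.452 and 0.401 with NO, below it. Without a reference gene the means were 1.38 and 0.277, again on either side of 1. *Saur* was at 0.722 ± 0.0473 (SD, n = 3) in the 14-day control and 0.460 ± 0.0274 (SD, n = 3) with NO, and without a reference gene at 0.437 and 0.299. *Tor* was at 0.419 ± 0.0420 (SD, n = 3) in the 14-day control and 0.0951 ± 0.0222 (SD, n = 3) with NO, and without a reference gene at 0.253 and 0.0614. For *Pimt*, *Saur* and *Tor* the NO-treated axes of 14-day aged seeds had the lowest mean of the 6 groups on both scales.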

How the data were processed

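The authors deposited RT-qPCR values of 18 target genes and 2 reference genes in 18 samples. The deposited quantification cycles are means of technical repetitions, in cycles. The relative expression that the authors deposited is a ratio (fold of the same-day control), normalized with 2 reference genes by the geometric-mean method that the paper's methods cite. The amplification efficiencies behind it are not given in the sources used here. A further 3 per-sample columns, of control values scaled to 7 days, and the authors' table of fold changes were not used.

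Replicates and groups were read from the table's row numbers and column names. Log2 relative expression of all 18 samples was fitted with limma 3.58.1 (lmFit, eBayes) in R 4.3.3 over 6 groups, with no pseudocount or filter, with Benjamini-Hochberg adjustment over 18 genes and a threshold of 0.05. The spread of each gene is thus estimated from all aging times. The study's methods name a Student's test of each gene, which was run as an alternative. The exact permutation test over samples was used for single values. Levels were re-derived from cycles with 1 doubling per cycle. The fit was tested on simulated data. By rule all 18 target genes were named, with each sample's value where a call was made or changed under an alternative, and in comparisons between aging times those called. Members, gene families and tests were chosen with earlier results of these data known. Alternatives were linear values, the compared groups only, no moderation, a replicate block, other normalizers and leaving out each sample. Primer sequences came from the study's primer table. The listed identifiers of 0 of the 18 target genes were found in the RefSeq gene table, so genome positions are not given.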

Additional observations from a re-analysis of the deposited data

Results flagged for a closer look

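The effect of NO (log2 fold change against the same-day control) at 14 days differed from that at another time, by the limma test of the difference itself, in the genes below. Against 7 days the effect at 14 days was higher for *Hsp70c* (2.67), *Hsp20a* (1.51), *Raptor* (1.28), *Cpn60b* (0.51) and *Cpn60a* (0.45). It was lower for *Pimt* (-2.91), *Lea2a* (-0.84), *Saur* (-0.79), *ClpB4* (-0.59), *Lea4* (-0.58) and *ClpB1* (-0.52). Against 21 days it was higher for *Hsp70c* (4.64), *Hsp20a* (1.78), *Raptor* (1.74), *Hsp70a* (0.91) and *Cpn60a* (0.45), and lower for *Pimt* (-2.33), *Saur* (-1.23), *Lea2a* (-0.89) and *ClpB4* (-0.42). Both sets of differences share the 14-day samples. The cause of the differences was not tested.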

How the results depend on the processing

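*Hsp70c*, *Hsp20a*, *Cpn60a*, *Pimt*, *Tor* and *Saur* were called in 1 direction under all 18 alternatives, including a normalizer chosen after seeing the data, that of the 9 genes. *Cpn60a* and *Tor* are among those 9, from whose deposited values this normalizer was derived. For both it nearly gives the deposited values back, so it is no separate check of them. With a replicate block 3 genes were called higher and 5 lower, as without it, and the differences between times had equal counts too. Whether equal numbers pair the samples was not settled. Deviations of equal numbers at 14 days correlated at 0.17, 0.49 and -0.33, and those of unequal numbers at -0.62 to 0.33. These are too few values to decide it. Without a reference gene 5 genes were called higher at 14 days. Leaving out each sample gave 3 higher throughout and 3 to 6 lower, with 3 lower without control replicate 3, NO replicate 2 or NO replicate 3. The methods' test called 4 higher and 4 lower unadjusted, and 3 and 4 after adjustment. *Sar1* alone moved the median log2 fold change of the 18 genes by -0.19, to -0.23, with 3 called higher and 7 lower, and *Pdi* alone gave 4 and 4.

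The call of *Lea2a* was also lost without moderation (adjusted p = 0.0775), on linear values (0.0729), in a fit of the 14-day groups alone (0.111), under the methods' test (0.211 unadjusted, 0.309 adjusted), and without NO replicate 2 (0.0897) or 3 (0.158). *Lea4* lost it with *Pdi* alone (0.0992). *Hsp90* was called with the methods' unadjusted test (0.0297). Uncalled genes turned sign as follows. *Hsp70b* was -0.075 from cycles with *Sar1* and *Pdi* and -0.21 with *Sar1* alone, and *Cpn60b* -0.061 with *Sar1* alone. *ClpB4* was 0.083 with *Pdi* alone, 0.056 without a reference gene, 0.029 after centring, 0.036 with the normalizer of the 9 genes, and -0.11 to 0.049 when samples were left out (0.049 without control replicate 3). *Lea2b* was 0.0056 with *Pdi* alone and -0.13 to 0.070 with samples left out (positive without control replicate 3 or NO replicate 2). *Lea1* ran from -0.30 to 0.13 with samples left out (positive without control replicate 1 or NO replicate 2).

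Against 7 days, 3 genes were higher with *Sar1* alone and 3 lower with *Pdi* alone, and leaving out each sample gave 3 to 5 higher, with 3 without 7-day control replicate 1, and 5 to 6 lower. Against 21 days, 8 were lower after centring over the 18 genes and 2 with *Pdi* alone, and leaving out each sample gave 4 to 5 higher and 3 to 5 lower. *Hsp70c*, *Hsp20a*, *Pimt*, *Raptor* and *Saur* kept both calls, and *Hsp70a* its call against 21 days, under all 22 alternatives. Calls were lost for *ClpB4* against 21 days under 10 of them and *Cpn60a* under 6, and against 7 days for *ClpB1* under 5, *Cpn60b* under 4, *Cpn60a* under 3 and *Lea4* under 2. *Lea2a* lost each call, and *ClpB4* that against 7 days, under 1, *Pdi* alone. Leaving out each sample moved the difference of *Sar1* between -0.312 and -0.176 cycles and that of *Pdi* between -0.0289 and 0.0639, through 0. The causes were not tested.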

Other observations

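The replicates of the 14-day groups differed unequally by gene. The coefficient of variation of the control ran from 0.496% for *Lea4* to 32.8% for *Lea2a*, and that of the NO-treated samples from 1.96% for *Hsp20b* to 25.2% for *Tor*. *Lea1* was highest in control replicate 1 (1.38), and *Lea2a* in control replicate 3 (1.42).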
